A study of Mus musculus with 12 samples.

Results

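The 39 genes described here mark 2 related cell kinds of the marrow, the monocyte and the resident macrophage, and were chosen by name: 13 mark monocytes, 17 mark macrophages that live in tissue, and 9 are shared by both. A gene was measured where a transcript cluster (the array's unit of probes for 1 transcript) was annotated to that gene alone, which held for 38 of the 39 members, out of 19937 genes with a cluster of their own in the series. The missing member is Ly6c2, the antigen of classical monocytes, whose 2 clusters were annotated to Ly6c2 and Ly6c1 together, so that no level can be given to either. Each of the 38 measured members had 1 such cluster.

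The values are log2 levels from GeneChip Mouse Gene 1.0 ST arrays, 1 array per mouse, from 6 E4bp4-/- mice and 6 E4bp4+/+ mice. E4bp4, also named Nfil3, is a basic leucine zipper transcription factor known for its part in natural killer cell development. From the hindleg marrow, magnets had removed lineage cells by 6 surface antigens: CD11b and GR1 of myeloid cells, NK1.1 and CD2 of natural killer and T cells, B220 of B cells and Ter119 of red cells. Both genotypes were handled alike, per the labels. Strain, age and sex were not given in the sources used here, nor was the part of the gene that was deleted. Levels of Nfil3 averaged 6.49 ± 0.23 in E4bp4-/- and 7.18 ± 0.25 in E4bp4+/+ (SD, n = 6 each). The knockout arrays read 6.34 to 6.92 and the wild type arrays 6.94 to 7.66, so the genotypes did not overlap. The gap was narrow: knockout replicate 2 read 6.92, just below the lowest wild type array, and the other knockout arrays read 6.34 to 6.57. The adjusted p of Nfil3 from limma was 0.14 with all arrays and 0.17 without knockout replicate 1. Nfil3 itself therefore did not pass the adjusted test used below.

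Monocytes arise in the marrow from progenitors that respond to colony stimulating factor 1 through its receptor Csf1r, and leave for the blood by way of the chemokine receptor Ccr2. Resident macrophages of the marrow surround developing red cells, take up the nuclei those cells expel and the dying cells nearby, and recycle heme iron. The transcription factor PU.1, encoded by Spi1, is needed for both lineages and binds at many of their promoters. CD11b, encoded by Itgam, is carried by monocytes and by many macrophages, so mature cells of these kinds were among those the depletion was aimed at. Itgam still read between 6.87 and 8.93 in E4bp4-/- and between 6.81 and 7.91 in E4bp4+/+.

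Promoter windows from RefSeq (GRCm38.p6) were at hand for 28 of the 39 members, as 35 windows that each run from 250 bases before to 50 bases after an annotated transcript start. Of these, 5 are printed as examples: they belong to macrophage or shared genes whose level on 1 knockout array stood apart from the others, described below, and each holds at least 1 of the letters searched for. The windows of Cd163, Spic, Mertk, Cd5l and Ctss, genes that stood apart on that array too, are not printed, and in those of Cd163, Spic and Mertk neither motif was found. All run 5′ to 3′ on the gene's own strand. Capitals mark each match to GAGGAA, a core that PU.1 binds, searched on both strands (TTCCTC on the other), and, for Cd68, the match to TTANGTAA, a form of the site that E4BP4 binds, searched likewise (TTACNTAA on the other strand). The windows of Mrc1 (chr2:14229164-14229463, plus strand), C1qb (chr4:136886151-136886450, minus strand), C1qc (chr4:136892865-136893164, minus strand), Axl (chr7:25788684-25788983, minus strand) and Cd68 (chr11:69666121-69666420, minus strand) read as follows.
Mrc1: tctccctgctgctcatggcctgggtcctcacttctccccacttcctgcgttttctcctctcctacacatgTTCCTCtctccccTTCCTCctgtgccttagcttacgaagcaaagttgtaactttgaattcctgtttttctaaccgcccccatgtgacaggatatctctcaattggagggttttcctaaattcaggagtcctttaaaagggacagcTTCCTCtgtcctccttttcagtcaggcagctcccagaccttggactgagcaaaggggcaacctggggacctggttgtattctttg
C1qb: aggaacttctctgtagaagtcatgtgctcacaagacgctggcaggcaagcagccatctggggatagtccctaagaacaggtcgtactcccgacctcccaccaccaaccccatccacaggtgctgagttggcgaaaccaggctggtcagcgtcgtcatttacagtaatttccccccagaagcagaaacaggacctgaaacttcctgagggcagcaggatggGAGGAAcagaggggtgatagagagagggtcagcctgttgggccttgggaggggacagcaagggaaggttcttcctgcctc
C1qc: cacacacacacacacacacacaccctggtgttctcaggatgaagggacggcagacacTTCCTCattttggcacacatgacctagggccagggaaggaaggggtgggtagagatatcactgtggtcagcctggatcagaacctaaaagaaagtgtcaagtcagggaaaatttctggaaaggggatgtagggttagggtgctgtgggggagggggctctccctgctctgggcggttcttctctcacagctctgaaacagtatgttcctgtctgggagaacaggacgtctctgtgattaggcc
Axl: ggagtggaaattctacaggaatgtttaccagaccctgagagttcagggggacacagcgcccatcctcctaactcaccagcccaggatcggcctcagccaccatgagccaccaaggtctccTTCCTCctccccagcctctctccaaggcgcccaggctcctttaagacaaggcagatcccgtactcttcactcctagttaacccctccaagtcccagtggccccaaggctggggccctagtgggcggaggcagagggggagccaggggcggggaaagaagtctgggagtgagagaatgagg
Cd68: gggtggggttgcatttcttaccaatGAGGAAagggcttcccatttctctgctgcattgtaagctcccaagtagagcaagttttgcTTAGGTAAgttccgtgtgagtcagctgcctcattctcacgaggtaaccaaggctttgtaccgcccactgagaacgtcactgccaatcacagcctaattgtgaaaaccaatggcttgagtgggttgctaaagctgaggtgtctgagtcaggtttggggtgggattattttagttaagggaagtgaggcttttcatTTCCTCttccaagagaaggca

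The PU.1 letters were found in 19 of the 35 member windows (54.3%), in 15 of the 28 genes, against 28.3% of all 32851 promoter windows of this length. In Mrc1 they began 180, 167 and 35 bases before the start, in C1qb 30 before, in C1qc 193 before and in Axl 130 before. In Cd68 they began 225 bases before the start and again 29 bases after it. The E4BP4 letters were found in 2 member windows (5.71%), those of Cd68, where they began 165 bases before the start, and of Ms4a7, where they began 181 bases before it, against 2.32% of all windows. A match describes the letters only, and the members share a list that was chosen for its cell types.

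One array, knockout replicate 1, stood apart and bears on every comparison below. It read 6.08 for Xist, the RNA of the inactive X chromosome, against 12.33 to 12.55 on the other knockout arrays and 12.10 to 12.65 on the wild type arrays. It read 7.37 for the Y-linked gene Eif2s3y, against 3.93 to 4.08 on the other knockout arrays and 3.95 to 4.13 on the wild type arrays. By these genes that array reads as male and the other 11 as female, though the labels give no sex. Sex and any other trait of that mouse cannot be told apart in what sets its array apart. Pairs of arrays correlated between 0.986 and 0.9955 over all 34760 clusters, and array medians lay between 6.50 and 6.62. Results are given with all 12 arrays and without that one, and the number of arrays limits the precision of each. In RNA from a bulk of cells, fewer cells of a type and less RNA per cell cannot be told apart.

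With all 12 arrays, 36 of the 38 members were higher in E4bp4-/- by the sign of the difference, where 55.9% of all 29541 clusters tested were, and the median difference was 0.14 log2 (range -0.16 to 0.34), against 0.015 over all clusters. Of the 36, Spic and Ms4a7 entered the test through knockout replicate 1 alone, the only array on which they reached the 20th percentile. No member passed the limma test at an adjusted p of 0.05 (0 of 38; background 0% of 29541 clusters), and the lowest adjusted p among members was 0.24. At an unadjusted p under 0.05 the count was 1 member, Apoe, where the background was 14.9% (8.47% higher and 6.39% lower in E4bp4-/-). Without knockout replicate 1 the members were split, with 17 higher and 19 lower of the 36 that still reached the 20th percentile of an array, where 56.6% of 29472 clusters were higher. Their median difference was then -0.0044 log2 (range -0.22 to 0.15). Again 0 members passed the adjusted test (background 0.0136%), and 1, Apoe, had an unadjusted p under 0.05 (background 13.6%, of which 8.42% higher and 5.14% lower). No member had genotypes that failed to overlap, with all arrays (0 of 38; background 1.27%) or without knockout replicate 1 (0 of 36; background 1.98%).

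**Figure D1:**
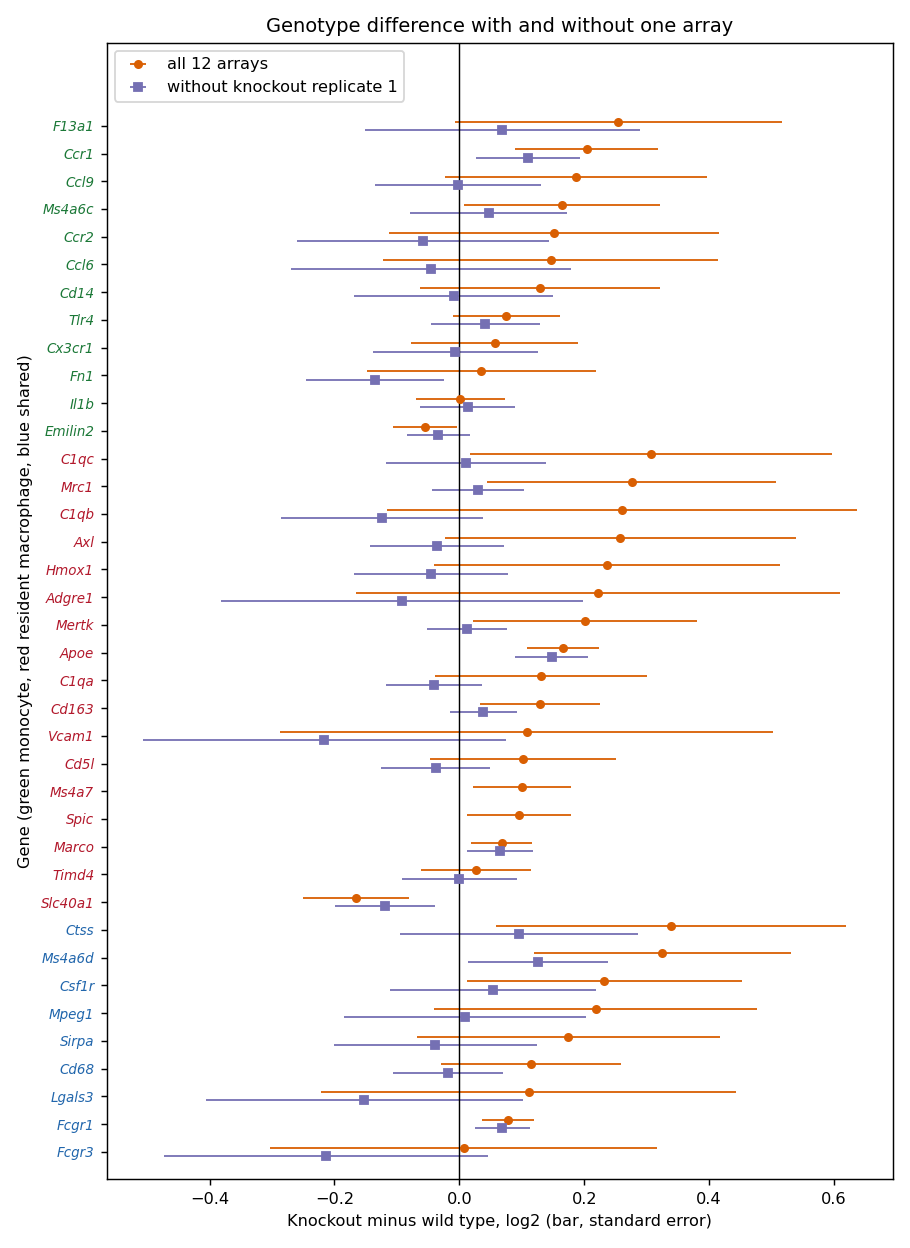
Difference of each measured member, E4bp4-/- minus E4bp4+/+, in log2 with its standard error, with all 12 arrays (circles) and without knockout replicate 1 (squares), grouped by role. Most circles lie to the right of 0 and the squares lie on both sides of it; Ms4a7 and Spic have no square because they reached the 20th percentile on knockout replicate 1 only.

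The monocyte genes are given first. Of the 12 measured, 11 were higher and 1 was lower in E4bp4-/- with all arrays, with a median difference of 0.14 log2, and 5 were higher and 7 lower without knockout replicate 1, with a median of -0.0044 log2. None of the 12 passed the adjusted test either way, and the lowest adjusted p was 0.42 with all arrays and 0.57 without knockout replicate 1.

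Ccr2, the receptor by which monocytes leave the marrow, read 8.81, 7.80, 8.12, 7.14, 7.40 and 7.30 on knockout arrays 1 to 6, against 8.20, 7.57, 7.27, 7.66, 7.24 and 7.71 on wild type arrays 1 to 6. Replicate 1 was the highest array of each genotype, and the wild type range lay inside the knockout range. The difference was 0.15 ± 0.26 log2 (SE) with all arrays and -0.06 ± 0.20 log2 without knockout replicate 1.

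F13a1, a coagulation factor subunit made by monocytes, read 11.13, 10.22, 10.46, 9.75, 10.16 and 9.49 on knockout arrays, against 10.62, 10.26, 9.70, 9.91, 9.51 and 9.68 on wild type arrays. Here too replicate 1 was the highest of each genotype, and both the highest and the lowest of the 12 arrays were knockout. The difference, 0.25 ± 0.26 log2 (SE), was the largest among the monocyte genes with all arrays, and it was 0.07 ± 0.22 log2 without knockout replicate 1.

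Ccl9, a chemokine of myeloid cells, read 10 on knockout replicate 1 and 8.60 to 9.0 on the other knockout arrays, against 8.49 to 9.37 in the wild type, where replicate 1 was the highest. The other 5 knockout arrays lay inside the wild type range. The difference was 0.19 ± 0.21 log2 (SE) with all arrays and at or near 0 without it, ± 0.13 log2.

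Cd14, a co-receptor for bacterial lipopolysaccharide, was the one gene whose 2 arrays numbered 1 both stood apart from their genotype by a gap of more than 0.625 of its range. It read 6.68, 5.98, 5.99, 5.74, 5.74 and 5.80 on knockout arrays, against 6.59, 5.79, 5.86, 5.62, 5.56 and 5.73 on wild type arrays. The other 5 arrays of either genotype lay below 6 log2. Tlr4, the receptor that signals for lipopolysaccharide, had no such array: its levels were 5.02 to 5.51 with a median of 5.29 in E4bp4-/-, against 5.12 to 5.32 with a median of 5.18 in E4bp4+/+.

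Ccr1, a receptor for inflammatory chemokines, had the lowest unadjusted p of the monocyte genes with all arrays. It read 5.75, 5.19, 5.37, 5.00, 5.22 and 5.17 on knockout arrays, against 5.31, 5.12, 4.98, 5.12, 4.85 and 5.10 on wild type arrays. Knockout replicates 1 and 3 lay above every wild type array and the other 4 lay among them. The difference was 0.20 ± 0.11 log2 (SE), with an adjusted p of 0.42 from limma and a two-sided exact permutation p of 0.126. With knockout replicate 1 left out it was 0.11 ± 0.083 log2, with an exact permutation p of 0.247.

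Ms4a6c, a membrane protein of the MS4A family, read 10.08 to 10.96 with a median of 10.28 in E4bp4-/-, against 9.91 to 10.70 with a median of 10.20 in E4bp4+/+. Replicate 1 was the highest of each genotype. Ccl6, a chemokine encoded beside Ccl9, read 6.55 to 8.21 with a median of 7.24 in E4bp4-/-, against 6.48 to 7.64 with a median of 7.16 in E4bp4+/+, and here wild type replicate 6 was the highest of its genotype. Cx3cr1, the fractalkine receptor of patrolling monocytes, read 7.76 to 8.26 with a median of 7.88 in E4bp4-/-, against 7.42 to 8.21 with a median of 8.0 in E4bp4+/+. Its genotypes overlapped.

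Fn1, which encodes the matrix protein fibronectin, read 10.48 on knockout replicate 1 and 9.23 to 9.79 on the other knockout arrays, against 9.40 to 9.84 in E4bp4+/+. Its difference was 0.04 ± 0.18 log2 (SE) with all arrays and -0.13 ± 0.11 log2 without knockout replicate 1, one of the signs that turned. Another 2 monocyte genes were no higher on knockout replicate 1 than on the rest. Emilin2, which encodes an extracellular glycoprotein, read 9.92 on that array, its lowest of 12, and 9.98 to 10.20 on the other knockout arrays, against 9.98 to 10.19 in E4bp4+/+. Il1b, an inflammatory cytokine, read 5.55 to 5.85 with a median of 5.70 in E4bp4-/-, against 5.53 to 5.90 with a median of 5.70 in E4bp4+/+, so that its difference was at or near 0, ± 0.071 log2 (SE).

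**Figure D2:**
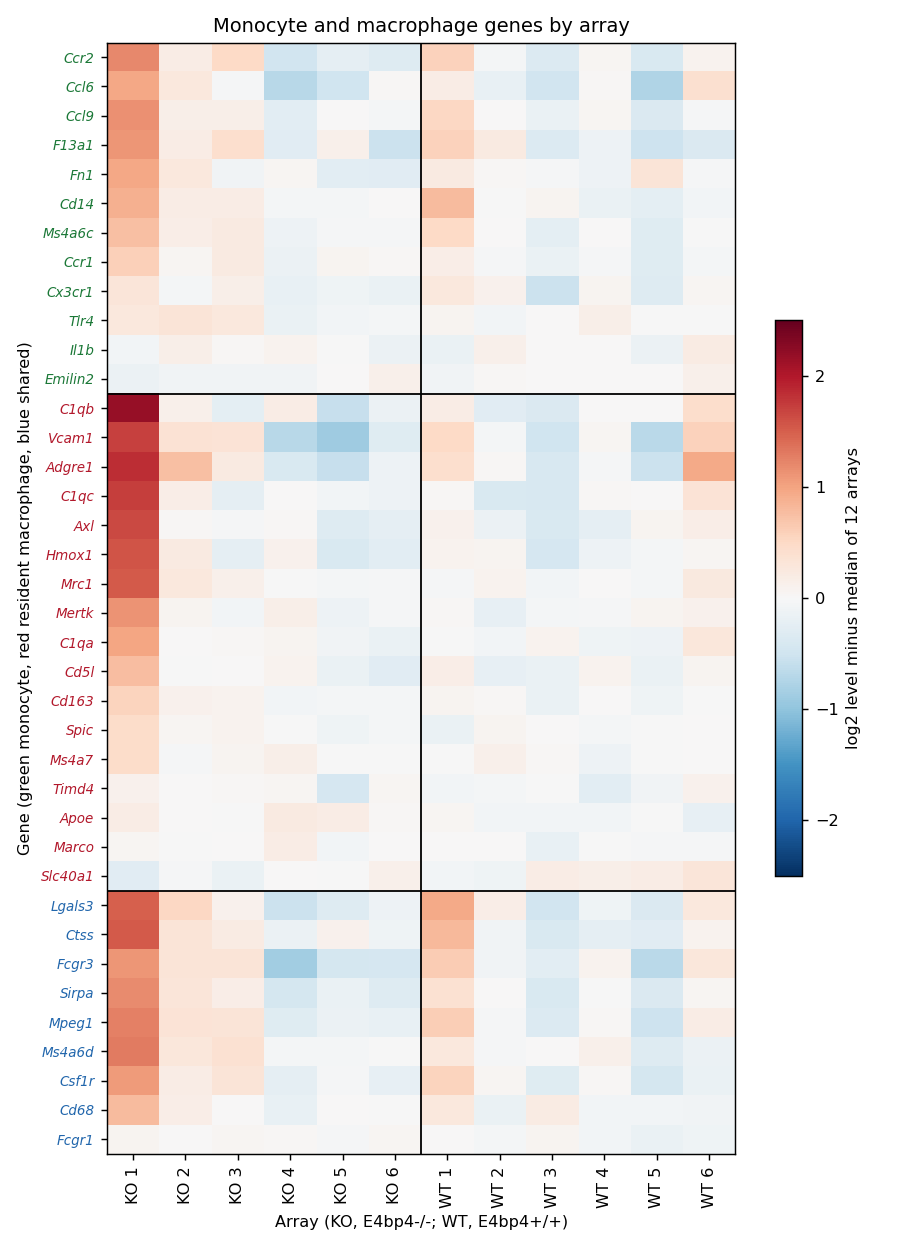
Level of the 38 measured members on each array, shown as log2 level minus the gene's median over 12 arrays, with knockout arrays left of wild type arrays and genes grouped by role. The column of knockout replicate 1 is high for most genes; the column of wild type replicate 1 is high mainly in the monocyte and shared blocks.

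The resident macrophage genes come next. Of the 17, 16 were higher and 1 was lower in E4bp4-/- with all arrays, with a median difference of 0.13 log2. The 16 include Spic and Ms4a7, which passed the filter through knockout replicate 1 alone. In the fit without knockout replicate 1, 7 were higher and 8 lower of the 15 tested, with a median of -0.036 log2. None passed the adjusted test either way, with lowest adjusted p-values of 0.24 and 0.32, both for Apoe.

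The complement genes C1qa, C1qb and C1qc encode the 3 chains of C1q, which macrophages make. C1qb read 9.0 on knockout replicate 1 and 6.25 to 7.01 on the other knockout arrays, against 6.46 to 7.25 in E4bp4+/+. C1qc read 7.93 on knockout replicate 1 and 5.99 to 6.37 on the others, against 5.81 to 6.56 in E4bp4+/+. C1qa read 7.01 on knockout replicate 1 and 5.84 to 6.09 on the others, against 5.89 to 6.29 in E4bp4+/+. For all 3 chains that one array lay above the other 11, which overlapped between genotypes. Knockout replicate 1 exceeded the mean of the other 5 knockout arrays 4.96-fold for C1qb, 3.42-fold for C1qc and 2.04-fold for C1qa. Without it, the differences were -0.12 ± 0.16 log2 (SE) for C1qb, 0.01 ± 0.13 log2 for C1qc and -0.04 ± 0.076 log2 for C1qa.

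Axl and Mertk are receptor kinases by which macrophages recognise dying cells. Axl read 9.01, 7.39, 7.33, 7.38, 7.03 and 7.13 on knockout arrays, against 7.46, 7.21, 6.97, 7.14, 7.42 and 7.52 on wild type arrays. Mertk read 7.72, 6.65, 6.52, 6.73, 6.47 and 6.57 on knockout arrays, against 6.61, 6.38, 6.54, 6.57, 6.66 and 6.69 on wild type arrays. For both, knockout replicate 1 was the highest and the other 11 arrays overlapped. Timd4, a receptor for phosphatidylserine on dying cells, differed from this: it read 5.08 to 5.61 with a median of 5.54 in E4bp4-/-, against 5.25 to 5.62 with a median of 5.44 in E4bp4+/+. Its array apart was knockout replicate 5, the lowest.

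Adgre1 encodes the surface receptor by which mouse macrophages are usually recognised, and Vcam1 encodes an adhesion molecule that marrow macrophages and stromal cells carry. Adgre1 read 8.32, 7.22, 6.68, 6.09, 5.89 and 6.33 on knockout arrays, against 6.89, 6.49, 6.06, 6.44, 5.92 and 7.41 on wild type arrays. Vcam1 read 9.90, 8.55, 8.53, 7.49, 7.30 and 7.89 on knockout arrays, against 8.68, 8.14, 7.68, 8.23, 7.51 and 8.76 on wild type arrays. Both genes varied over more than 1 log2 among the wild type arrays too, with replicate 6 the highest there. Their differences were 0.22 ± 0.39 log2 (SE) for Adgre1 and 0.11 ± 0.40 log2 for Vcam1 with all arrays. Leaving out knockout replicate 1 gave -0.09 ± 0.29 log2 for Adgre1 and -0.22 ± 0.29 log2 for Vcam1.

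Mrc1, the mannose receptor, read 7.11, 5.83, 5.71, 5.57, 5.52 and 5.54 on knockout arrays, against 5.54, 5.67, 5.50, 5.58, 5.52 and 5.82 on wild type arrays. One knockout array was high and the other 11 arrays lay within a narrow band. Its difference was 0.28 ± 0.23 log2 (SE) with all arrays and 0.03 ± 0.074 log2 without knockout replicate 1. Marco, a scavenger receptor, had no high array: its knockout levels were 6.27 to 6.52 with a median of 6.34, against 6.15 to 6.35 with a median of 6.31 in the wild type. Wild type replicate 3 was low for Marco, and the difference was 0.07 ± 0.049 log2 (exact permutation p = 0.19).

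Another 4 members handle heme and iron, the task of macrophages that serve red cell development, and they did not move as one. Hmox1, the enzyme that opens the heme ring, read 8.74 on knockout replicate 1 and 6.77 to 7.38 on the other knockout arrays, against 6.74 to 7.25 in E4bp4+/+. Cd163, a receptor that takes up hemoglobin bound to haptoglobin, read 6.60 on knockout replicate 1 and 5.97 to 6.15 on the others, against 5.88 to 6.11 in E4bp4+/+. Spic, a transcription factor of macrophages that recycle iron, read 5.31 on knockout replicate 1, the one array on which it reached the 20th percentile (4.93 to 4.99, by array), and 4.75 to 4.95 on the others, against 4.69 to 4.93 in E4bp4+/+.

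Slc40a1, which encodes the iron exporter ferroportin, went the other way. It read 9.58, 9.83, 9.69, 9.88, 9.85 and 10 on knockout arrays, against 9.79, 9.76, 10.05, 10.01, 10.05 and 10.16 on wild type arrays. Knockout replicate 1 was the lowest of the 12, and the genotypes overlapped through wild type replicates 1 and 2. The difference was -0.16 ± 0.085 log2 (SE), with an adjusted p of 0.38 from limma and a two-sided exact permutation p of 0.102. It was -0.12 ± 0.081 log2 without knockout replicate 1 (exact permutation p = 0.193). Ferroportin is also made by developing red cells, and the 8 erythroid genes measured alone were all lower in E4bp4-/- by sign, with a median of -0.12 log2, and -0.036 log2 without knockout replicate 1; their part in the Slc40a1 difference was not tested.

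Apoe, a lipid carrier made by macrophages, had the lowest p of all members. It read 10.67, 10.49, 10.46, 10.70, 10.66 and 10.51 on knockout arrays, against 10.53, 10.41, 10.41, 10.41, 10.46 and 10.27 on wild type arrays. Knockout replicates 1, 4 and 5 lay above every wild type array, and the other 3 lay below wild type replicate 1. The difference was 0.17 ± 0.057 log2 (SE), a ratio of 1.12, with an adjusted p of 0.24 from limma and a two-sided exact permutation p of 0.0173 for this gene alone among 38. Without knockout replicate 1 it was 0.15 ± 0.059 log2, with an adjusted p of 0.32 and an exact permutation p of 0.0303. Knockout replicate 1 stood only 0.11 log2 above the mean of the other knockout arrays for Apoe, unlike its excess for most macrophage genes.

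Cd5l, a secreted protein of tissue macrophages, read 5.92 on knockout replicate 1 and 4.87 to 5.23 on the other knockout arrays, against 4.95 to 5.32 in E4bp4+/+. Ms4a7, a membrane protein of macrophages, read 5.00 on knockout replicate 1 and 4.52 to 4.70 on the others, against 4.42 to 4.67 in E4bp4+/+, and like Spic it reached the 20th percentile on that array only. With knockout replicate 1 set aside, 10 of the 38 members lay under 6 log2 on every array, not far above the 20th percentiles.

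**Figure D3:**
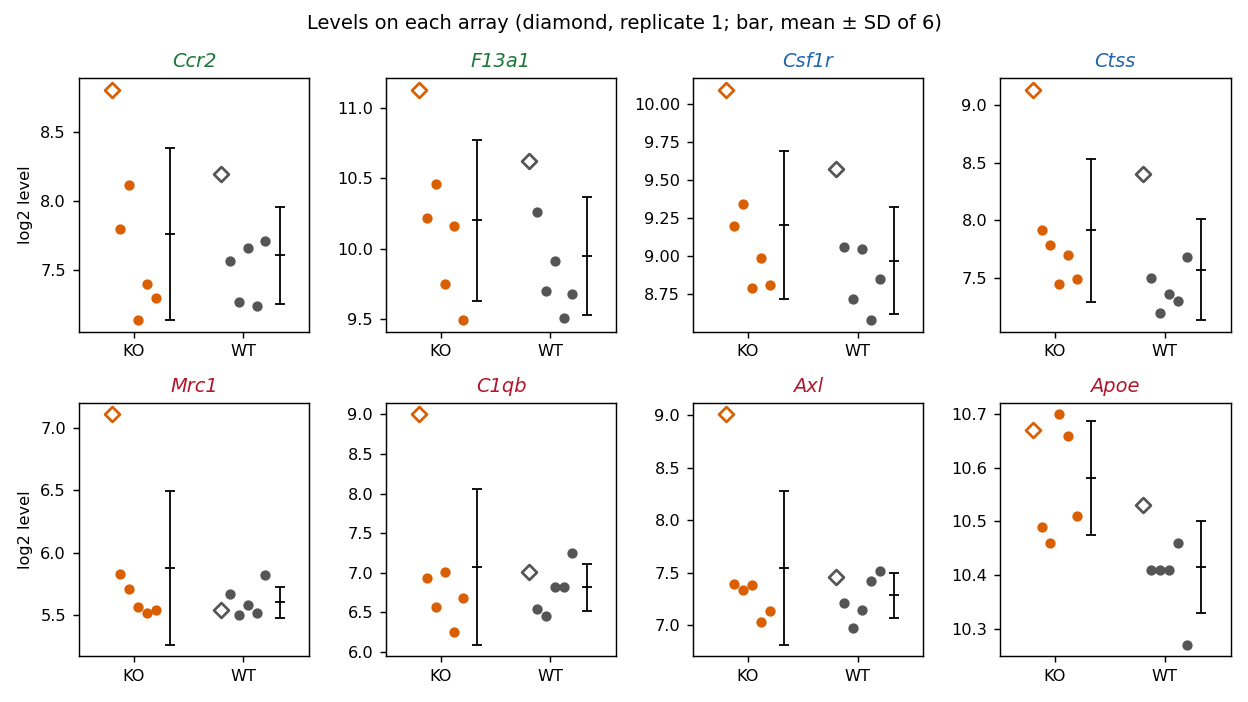
log2 level of 8 members on each array, knockout (orange) left of wild type (grey), with replicate 1 of each genotype as an open diamond and the mean ± SD of 6 arrays beside the points. For Ccr2, F13a1, Csf1r and Ctss the diamonds are the highest of both genotypes, for Mrc1, C1qb and Axl the knockout diamond alone is far above, and Apoe has neither pattern.

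The 9 shared genes were all higher in E4bp4-/- by sign with all arrays, with a median difference of 0.17 log2. Without knockout replicate 1, 5 were higher and 4 lower, with a median of 0.0087 log2. None passed the adjusted test, and the lowest adjusted p was 0.40 with all arrays and 0.51 without knockout replicate 1.

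Csf1r, the receptor that both lineages need, read 10.09, 9.20, 9.34, 8.79, 8.99 and 8.81 on knockout arrays, against 9.57, 9.06, 8.72, 9.05, 8.58 and 8.85 on wild type arrays. Replicate 1 was the highest of each genotype. The difference was 0.23 ± 0.22 log2 (SE; exact permutation p = 0.392) with all arrays and 0.05 ± 0.17 log2 without knockout replicate 1.

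Ctss, a lysosomal protease that prepares antigens, had the largest difference of all members in the fit of all 12 arrays. It read 9.13, 7.92, 7.79, 7.45, 7.70 and 7.49 on knockout arrays, against 8.40, 7.50, 7.20, 7.36, 7.30 and 7.68 on wild type arrays. Replicate 1 was again the highest of each genotype, and the other arrays overlapped. The difference was 0.34 ± 0.28 log2 (SE; exact permutation p = 0.34) with all arrays and 0.10 ± 0.19 log2 without knockout replicate 1.

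Ms4a6d, a relative of Ms4a6c, read 6.79, 5.77, 5.86, 5.43, 5.44 and 5.48 on knockout arrays, against 5.75, 5.46, 5.49, 5.61, 5.17 and 5.33 on wild type arrays. Knockout replicates 1, 2 and 3 lay above every wild type array. The difference was 0.33 ± 0.21 log2 (SE; exact permutation p = 0.18) with all arrays and 0.13 ± 0.11 log2 without knockout replicate 1. The MS4A genes are related in sequence, and cross-hybridisation between them was not tested.

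Fcgr1, the high affinity receptor for immunoglobulin G, varied little. It read 5.61 to 5.70 with a median of 5.66 in E4bp4-/-, against 5.46 to 5.69 with a median of 5.57 in E4bp4+/+. The difference was 0.08 ± 0.042 log2 (SE), with an exact permutation p of 0.0584 and an adjusted p of 0.40 from limma. Fcgr3, a low affinity receptor of the same class that neutrophils and natural killer cells also carry, varied far more: it read 8.32 to 10.30 with a median of 9.14 in E4bp4-/-, against 8.52 to 9.82 with a median of 9.19 in E4bp4+/+. Its difference was 0.01 ± 0.31 log2 (SE) with all arrays and -0.21 ± 0.26 log2 without knockout replicate 1.

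Cd68, a lysosomal glycoprotein of macrophages, read 10.06 on knockout replicate 1 and 9.08 to 9.44 on the other knockout arrays, against 9.10 to 9.54 in E4bp4+/+. Mpeg1, which encodes the pore-forming protein perforin-2, read 8.56 to 10.12 with a median of 8.94 in E4bp4-/-, against 8.35 to 9.48 with a median of 8.86 in E4bp4+/+. Lgals3, the lectin galectin-3, read 7.35 to 9.39 with a median of 7.88 in E4bp4-/-, against 7.42 to 8.84 with a median of 7.92 in E4bp4+/+. For all 3 genes replicate 1 was the highest array of each genotype. Sirpa, an inhibitory receptor that binds CD47, read 8.84 to 10.47 with a median of 9.29 in E4bp4-/-, against 8.90 to 9.66 with a median of 9.29 in E4bp4+/+. Its highest array was also replicate 1 in both genotypes.

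The excess of knockout replicate 1 can be set out by role, as a description of 1 array. It was the highest of the 12 arrays for 31 of the 38 members, where it was so for 14.8% of all clusters tested. Among the 31 are Spic and Ms4a7, which passed the filter through this array alone. It exceeded the mean of the other 5 knockout arrays by at least 1 log2 for 21 members (background 0.921%) and by at least 0.5 log2 for 27 (background 4.28%). For 15 members, Spic among them, its gap to the next knockout array was over 0.625 of the knockout range (background 1.86%). The median excess was 0.77 log2 for the monocyte genes, 1.03 for the macrophage genes and 1.26 for the shared genes, against -0.034 over all clusters tested. The 5 monocyte genes past 1 log2 were Ccr2 (1.26), Ccl6 (1.15), Ccl9 (1.14), F13a1 (1.11) and Fn1 (1.02). The 9 macrophage genes past 1 log2 ran from 1.03 for C1qa to 2.31 for C1qb, with Vcam1 at 1.95 and Adgre1 at 1.88 next after C1qb. The 7 shared genes past 1 log2 ran from 1.07 for Csf1r to 1.58 for Lgals3.

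Wild type replicate 1 was also high, for a smaller set of the same members. It was the highest wild type array for 20 of the 38 members (background 18.2%), among them 7 of 12 monocyte genes, 8 of 9 shared genes and 5 of 17 macrophage genes. It exceeded the mean of the other 5 wild type arrays by at least 0.5 log2 for 12 members (background 2.56%): 5 monocyte genes, 6 shared genes and, of the macrophage genes, Vcam1 alone (0.62). On knockout replicate 1 these 12 members had excesses of 0.71 to 1.95 log2. The median excess was 0.38 log2 for the monocyte genes, 0.11 for the macrophage genes and 0.71 for the shared genes. The highest wild type array for 10 of the 17 macrophage genes was replicate 6 instead. That array also had the highest wild type mean of the eosinophil genes described below, 10.32, and their part in these levels was not tested. These are values of single arrays, so no test of the difference between the roles was made.

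**Figure D4:**
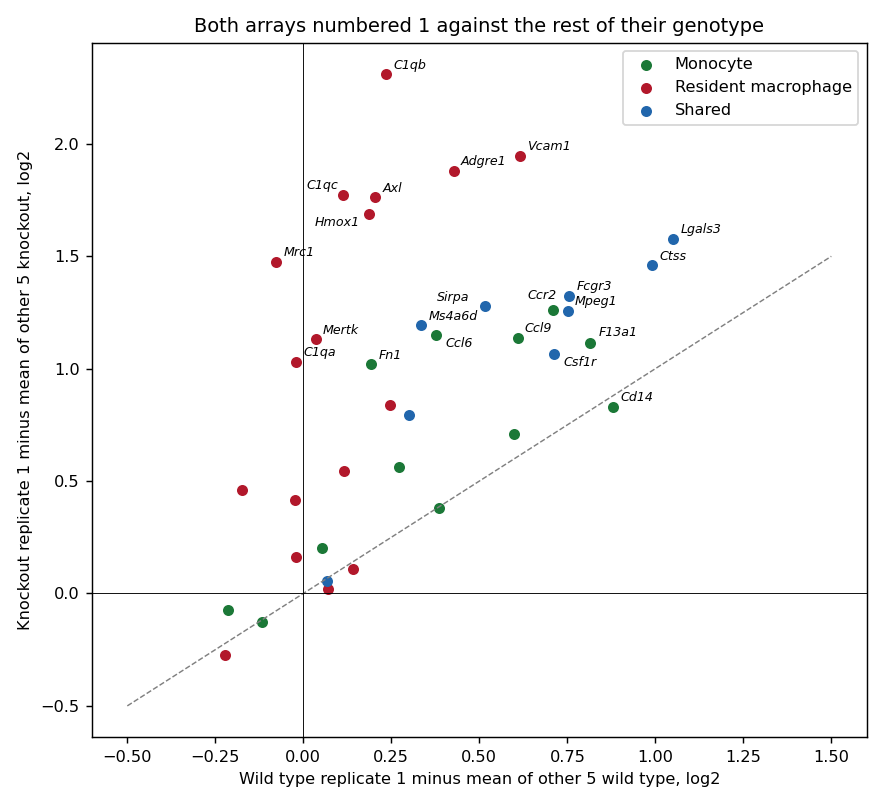
For each measured member, the excess of knockout replicate 1 over the mean of the other 5 knockout arrays (vertical axis, log2) against the excess of wild type replicate 1 over the mean of the other 5 wild type arrays (horizontal axis, log2), with a dashed line of equality. C1qb, C1qc, Axl, Hmox1 and Mrc1 lie high on the left, with an excess mainly on the knockout array, and the shared genes and several monocyte genes lie to the right, with an excess on both.

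Macrophage and monocyte genes were compared on each array by the mean of the 17 macrophage genes minus the mean of the 12 monocyte genes. This offset was -0.80, -1.15, -1.28, -0.92, -1.26 and -1.10 log2 on knockout arrays 1 to 6, against -1.35, -1.21, -1.10, -1.15, -0.96 and -0.95 log2 on wild type arrays 1 to 6. Its sign reflects which probes are in each list and says nothing of abundance; only its change between arrays can be read. The 17 include Spic and Ms4a7, which reached the 20th percentile on knockout replicate 1 only, so the offset of that array rests in part on them. Knockout replicate 1 had the least negative offset and wild type replicate 1 the most negative, and the genotypes overlapped. The mean offset was higher by 0.036 log2 in E4bp4-/- with all arrays. The difference was -0.026 log2 without knockout replicate 1, over the 15 macrophage genes that then passed the filter.

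Markers of some other cells were high on the same array, and others were not. All 20 neutrophil genes on a list of granule proteins, receptors and regulators were highest of the 12 arrays on knockout replicate 1, with a median excess of 1.35 log2. Their mean level was 9.56 on that array and 7.44 to 8.35 on the other knockout arrays, against 7.51 to 8.31 on the wild type arrays. Of the genes behind the depletion antigens, Itgam exceeded the other knockout arrays there by 1.49 log2 and Ly6g, which encodes an antigen that GR1 antibodies bind, by 1.57 log2, while Cd2 exceeded them by 0.20 log2 and was highest on wild type replicate 6. Ly6g reached the 20th percentile on 6 of the 12 arrays and read 4.74 to 5.31 on the other knockout arrays, near that percentile. The 7 eosinophil genes measured of 9 had a median excess of 1.00 log2, with mean levels of 7.93 to 10.32 in E4bp4-/- and 8.66 to 10.32 in E4bp4+/+. Their mean was lowest on knockout replicate 4, at 7.93, and read 10.32 on both knockout replicate 1 and wild type replicate 6. Knockout replicate 1 was the highest of the 12 arrays for 2 of the 7. The median excess was -0.06 log2 for stromal genes, 0.03 log2 for endothelial genes, -0.43 log2 for erythroid genes and -0.74 log2 for megakaryocyte genes. It was 0.28 log2 for B and plasma cell genes, 0.21 log2 for dendritic cell genes and 0.07 log2 for natural killer and T cell genes. Single genes of these lists were higher: Igha, the immunoglobulin heavy chain of plasma cells that make IgA, read 12.70 on that array and 8.18 to 8.97 on the other knockout arrays, against 8.44 to 9.34 in E4bp4+/+. The dendritic cell genes Cd209a, H2-Aa and Cd74 exceeded the mean of the other knockout arrays by 1.62, 1.21 and 1.10 log2, though H2-Aa and Cd74 were highest on wild type replicate 1. H2-Aa read 7.35 on knockout replicate 1 and 5.51 to 7.46 on the other knockout arrays, against 7.33 to 8.15 in E4bp4+/+. Cd74 read 9.0 there and 7.43 to 8.43 on the others, against 8.31 to 9.05 in E4bp4+/+. Both were lower in E4bp4-/- with all arrays, with differences of -1.34 log2 for H2-Aa and -0.50 log2 for Cd74. Klrb1c, which encodes NK1.1, lay below the 20th percentile on all arrays. The part of these cells in the levels of the monocyte and macrophage genes was not tested.

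**Figure D5:**
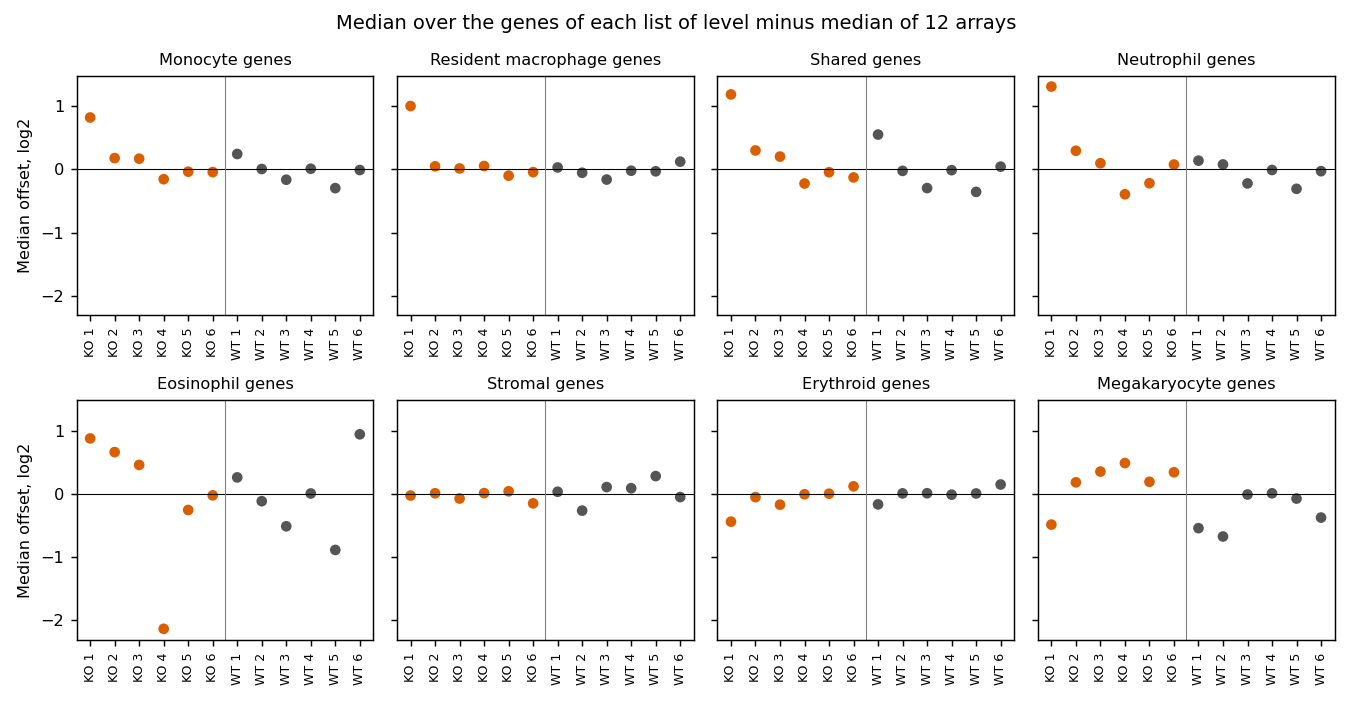
For 8 gene lists, the median over the genes of the log2 level minus each gene's median over 12 arrays, by array, with knockout arrays (orange) left of wild type arrays (grey). Monocyte, resident macrophage, shared and neutrophil genes are high on knockout replicate 1, stromal genes are not, and erythroid and megakaryocyte genes are low there.

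The ligands, receptors and regulators around these genes were read from a list of 30, of which 29 were measured. By sign 26 were higher and 3 lower in E4bp4-/- with all arrays, with a median difference of 0.12 log2, and 16 were higher and 13 lower without knockout replicate 1, with a median of 0.042 log2. None passed the adjusted test. Csf1, a ligand of Csf1r, read 6.71 to 7.67 in E4bp4-/-, against 7.03 to 7.49 in E4bp4+/+. Il34, the other ligand, read 5.99 to 6.25 in E4bp4-/-, against 5.95 to 6.19 in E4bp4+/+. For both ligands the genotypes overlapped.

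Spi1 read 11.26 on knockout replicate 1 and 9.83 to 10.39 on the other knockout arrays, against 10.75 on wild type replicate 1 and 9.75 to 10.28 on the other wild type arrays. Irf8 and Klf4, transcription factors needed for monocytes, exceeded the mean of the other knockout arrays on knockout replicate 1 by 0.89 and 1.12 log2. On wild type replicate 1 they exceeded the mean of the other wild type arrays by 0.61 and 0.63 log2. Nr4a1, needed for patrolling monocytes and induced early when cells are stimulated, was high on both arrays numbered 1, by 2.02 log2 in the knockout and 1.88 log2 in the wild type.

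At an unadjusted p under 0.05 from limma with all 12 arrays, 2 of the 29 were higher and 1 lower in E4bp4-/- (background 8.47% higher and 6.39% lower). Of that list, the 3 genes of lowest p were Zbtb7a, Pros1 and Zeb2. Zbtb7a, a repressor that acts in several blood lineages, read 9.12, 9.40, 9.15, 9.28, 9.25 and 9.28 on knockout arrays, against 9.50, 9.48, 9.52, 9.45, 9.41 and 9.50 on wild type arrays, and the genotypes did not overlap. The difference was -0.23 ± 0.048 log2 (SE), with an adjusted p of 0.15 from limma and an exact permutation p of 0.00216, the smallest that 924 permutations can give. Pros1, a ligand of Mertk, differed by 0.28 ± 0.12 log2 (adjusted p = 0.33 from limma, exact permutation p = 0.0693). Zeb2, a transcription factor of monocytes and macrophages, differed by 0.11 ± 0.049 log2 (adjusted p = 0.33 from limma, exact permutation p = 0.00866) with all arrays and by 0.07 ± 0.036 log2 without knockout replicate 1 (adjusted p = 0.42 from limma, exact permutation p = 0.0173).

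Of 44 further monocyte and macrophage markers, 42 were measured, with 33 higher and 9 lower by sign and a median difference of 0.09 log2. Without knockout replicate 1, 20 were higher and 22 lower, with a median of -0.0076 log2, and none passed the adjusted test either way. With all 12 arrays, 2 of the 42 were higher and 0 lower in E4bp4-/- at an unadjusted p under 0.05 from limma (background 8.47% higher and 6.39% lower). The lowest p was that of Siglec1, the sialoadhesin of macrophages that hold red cell islands together. It read 6.68, 6.08, 6.13, 6.02, 5.87 and 6.06 on knockout arrays, against 5.82, 5.90, 5.76, 5.92, 5.79 and 6.01 on wild type arrays. Knockout replicate 5 lay among the wild type arrays and the other 5 above all of them. The difference was 0.27 ± 0.11 log2 (SE; adjusted p = 0.29 from limma, exact permutation p = 0.0152), and 0.16 log2 without knockout replicate 1 (exact permutation p = 0.026). Stab1, a scavenger receptor, differed by 0.09 ± 0.038 log2 (exact permutation p = 0.0238) and Fth1, the heavy chain of ferritin, by -0.07 ± 0.036 log2 (exact permutation p = 0.026), both small steps at adjusted p-values of 0.33 and 0.39 from limma.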

How the data were processed

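RNA of lineage-depleted marrow from 6 E4bp4-/- and 6 E4bp4+/+ mice was measured on 12 arrays, grouped by the genotype each label gives. The authors deposited log2 levels, 1 per transcript cluster, normalised with RMA16 in GeneSpring GX 11 per the series design text; the log2 scale was inferred from their range, 3.18 to 14.33. RMA draws arrays toward 1 distribution, so a shift of most genes would be hidden. Genes were named from the platform annotation, which gave 1 gene for 21640 of 34760 clusters, several for 1321 and none for 11799. Build and probe positions behind the values are not given in the sources used here.

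Clusters below the 20th percentile on every array (5219) were left out, and 29541 were tested. Genotypes were compared with limma (version 3.58.1, R 4.3.3; lmFit, then eBayes, without covariates), with Benjamini-Hochberg adjustment over all tested clusters at 0.05. For single genes, a two-sided exact permutation test over the arrays was run as well. The p-values set a genotype difference against the spread between mice, which limma moderates over all tested clusters. The members and lists were chosen with earlier results of these data known, so lists have counts and medians and no test. Picked by rule were the 5 members of lowest p in each role, those with an array apart and those of lowest and highest level. Of the regulator and marker lists, the 3 of lowest p were picked. These are given array by array, as ranges or as differences alone. Some members outside the rule, Ccr2, Adgre1 and Vcam1 among them, are given array by array too. Itgam, Ly6g, Cd2, Igha, Cd209a, H2-Aa, Cd74, Csf1, Il34, Spi1, Irf8, Klf4, Nr4a1 and some further members were chosen after their values were seen.

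The fit was tested on simulated data for this comparison, with 29541 clusters. It found 79% of 100 that had been shifted by 0.5 log2 and 93% of 100 shifted by 1 log2, and 8 that had not been shifted. With no shift it called 0. The shifted clusters were drawn at random from all those tested, with noise independent between clusters, so these shares are not those of the members. Standard errors of members differed widely, such as 0.042 log2 for Fcgr1 and 0.39 log2 for Adgre1. Recovery was not simulated for the members. Replicate numbers were not taken to pair the mice, since deviations of same-numbered arrays correlated from -0.033 to 0.46. Alternatives covered the filter, scaling, variance model, array weights, the replicate block and each array left out.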

Additional observations from a re-analysis of the deposited data

Results flagged for a closer look

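In each genotype, an array was set apart when its gap to the nearest of the other 5 was over 0.625 of the genotype's range. Among 76 sets of 6 values (38 members in each genotype) this held for 18, where chance gives about 1 in 20, or 3.8, for independent sets; the members are not independent, since 1 array can be apart for many of them. Knockout replicate 1 accounts for 15 of the 18, where it was apart in this way, on the high side, for 1.86% of all clusters tested. Spic, among the 15, passed the filter through that array alone.

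Of the monocyte genes, Ccl9 at 10 and Cd14 at 6.68 were apart on knockout replicate 1. Of the macrophage genes, 10 were: Mrc1 at 7.11, C1qa at 7.01, C1qb at 9.0, C1qc at 7.93, Hmox1 at 8.74, Cd163 at 6.60, Spic at 5.31, Axl at 9.01, Mertk at 7.72 and Cd5l at 5.92. Of the shared genes, Cd68 at 10.06, Ms4a6d at 6.79 and Ctss at 9.13 were. The other 3 were Timd4, low at 5.08 on knockout replicate 5, Cd14, high at 6.59 on wild type replicate 1, and Marco, low at 6.15 on wild type replicate 3. All 20 neutrophil genes were highest on knockout replicate 1 as well; their part in these values was not tested.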

How the results depend on the processing

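No member passed an adjusted p of 0.05 with limma under any of the alternatives run, and the lowest adjusted p of a member ranged from 0.20 to 0.37 over them. Changes of sign were counted for the members only and not over all clusters. With knockout replicate 1 left out, the difference of 17 of 36 members changed sign, and with both arrays numbered 1 left out 10 of 36 did. Under every other alternative run at most 4 did, the most with median centring, which moved the median of all clusters from 0.015 to -0.025 log2. Over the 12 fits without 1 array, the median difference ran from -0.0044 to 0.23 log2 for the monocyte genes, from -0.036 to 0.19 for the macrophage genes and from 0.0087 to 0.29 for the shared genes. The genotype difference of the macrophage minus monocyte offset ran from -0.026 to 0.075 log2, lowest without knockout replicate 1, where Spic and Ms4a7 drop out. The replicate number as a block gave 0 members past the adjusted threshold and 6 at an unadjusted p under 0.05 (Ccr1, Cd14, Slc40a1, Apoe, Ms4a6d and Ctss), against 1 without the block, and turned 0 signs. The share of all clusters at that p was not taken for the block fit, and it was 14.9% without the block. The 6 are therefore not read as a result about the members. The wild type array whose deviations correlated best with those of a knockout array bore its number for 1, 5 and 6 only. Averaging all clusters of a gene could not change a value, since each measured member has 1.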
